A study of Mus musculus with 16 samples.

Results

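Intergenic THOC5 peaks are the peaks that the deposited annotation placed outside every gene it holds. They were chosen as all peaks annotated Intergenic in the 8 deposited lists of RNA immunoprecipitated with THOC5 (RIP), and they number 383 of 28998 peaks (1.32%). The cells were primary mouse vascular smooth muscle cells, the contractile cells of the artery wall. The 4 conditions had 2 RIP samples each. THOC5 OE cells overexpressed THOC5 in osteogenic medium, and GFP OE cells overexpressed GFP, a control protein, in the same medium and are labelled WT. Pi cells were WT in osteogenic medium with no overexpression named, and Ctrl cells were WT in growth medium. The series' design text states the purpose as finding the transcripts that THOC5 contacts with and without phosphate (Pi) treatment. The labels name neither the vector, the duration of the RIP treatments nor separate cultures for replicates, so p-values measure only the spread between these samples, which may be technical. The remaining 8 samples, the inputs, were not analysed here. The files hold peaks and no expression, so smooth muscle markers could not be checked, and the depth of the libraries is unknown.

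THOC5 belongs to the THO complex, an assembly that is loaded onto nascent RNA during transcription and takes part in handing finished mRNA to the nuclear export receptor. RNA from outside annotated genes can come from unannotated exons or introns, from readthrough past a gene's end, from long noncoding RNAs or from repeats. Repeats are copies of mobile elements (LINE, SINE and LTR families), satellites, or copies of structural RNAs such as ribosomal RNA (rRNA), and a short read from one copy can match many others.

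An intergenic label depends on the gene models that the annotation used, and the RefSeq models used here differ from them. Why they differ was not tested. The centres of 270 of the 383 peaks (70.5%) lay inside a gene of the RefSeq table for the same mouse assembly (GRCm38.p6, equivalent to mm10). These were 194 peaks in protein-coding genes (50.7%), 57 in pseudogenes, 17 in long noncoding RNA genes and 2 in other genes. The other 113 (29.5%) lay in no RefSeq gene. The deposited nearest gene was the gene around the peak for 93 of the 194, and another gene for 101. For 115 of the 194 (59.3%), that protein-coding gene also held a peak that was not intergenic in the same list. A place with peaks in several lists counts in each of them. How often other peaks share their gene with a further peak was not tested.

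The RefSeq table holds 32851 promoter windows, each from 250 bases before to 50 bases after a gene's start. Intergenic peaks reached windows of 5 genes. Gene starts without a window in that table, such as further starts of the same gene, were not checked. The 3 shown are RefSeq promoter sequences (GRCm38.p6), read 5′ to 3′ on the plus strand, and they show what a peak called intergenic covers there. Capitals mark the bases that lie in the peaks of every list that reached the window. Gm32835 is at chr1:135687878-135688177, Maml2 at chr9:13297708-13298007 and 6430573P05Rik at chr3:79286605-79286904.
Gm32835: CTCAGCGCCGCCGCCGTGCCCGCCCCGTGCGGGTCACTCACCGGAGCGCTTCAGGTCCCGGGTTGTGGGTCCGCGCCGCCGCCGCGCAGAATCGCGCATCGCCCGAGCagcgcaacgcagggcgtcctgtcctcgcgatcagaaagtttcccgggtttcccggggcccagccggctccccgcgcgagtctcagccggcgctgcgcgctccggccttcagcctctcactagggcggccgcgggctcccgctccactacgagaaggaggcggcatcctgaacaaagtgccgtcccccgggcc
Maml2: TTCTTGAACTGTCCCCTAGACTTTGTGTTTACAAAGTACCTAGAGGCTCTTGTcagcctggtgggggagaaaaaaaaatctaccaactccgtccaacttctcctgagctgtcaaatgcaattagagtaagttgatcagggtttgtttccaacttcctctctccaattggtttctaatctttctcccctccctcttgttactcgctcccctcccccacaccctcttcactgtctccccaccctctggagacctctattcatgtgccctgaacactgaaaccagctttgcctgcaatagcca
6430573P05Rik: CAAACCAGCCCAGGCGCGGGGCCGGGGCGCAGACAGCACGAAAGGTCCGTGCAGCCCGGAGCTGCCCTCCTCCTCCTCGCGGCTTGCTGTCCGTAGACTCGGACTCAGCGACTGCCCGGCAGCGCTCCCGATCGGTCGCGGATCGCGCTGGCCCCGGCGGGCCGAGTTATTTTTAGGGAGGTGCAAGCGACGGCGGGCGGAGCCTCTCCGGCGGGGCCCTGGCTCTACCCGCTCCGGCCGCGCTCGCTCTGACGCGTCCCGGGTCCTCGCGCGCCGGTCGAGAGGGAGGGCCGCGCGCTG
The Gm32835 window was reached in 7 lists, by peaks that shared 108 of its bases, and the deposited nearest gene there was Csrp1, which codes for a LIM-domain protein of smooth muscle. None of these peaks held the Gm32835 start, at base 135688128, and all lay upstream of it. They also lay inside the RefSeq span of the protein-coding gene Nav1, which ends at base 135688350. The Gm32835 window holds 44 CG dinucleotides and 73.7% G and C. Of the 32851 windows in the RefSeq table, 2.25% hold as many CG, and the median window holds 7.0 CG and 52.7% G and C. The Maml2 window was reached in 4 lists, whose peaks shared 53 bases, and only 1 of these peaks held the start. The Maml2 window holds 2 CG, and 85.9% of windows hold as many. Maml2 codes for a coactivator of Notch signalling, and the deposited nearest gene was Ccdc82, over 50 kb away in each of the 4 lists. This is not the outermost start of Maml2, whose RefSeq span begins at 13296561. The 6430573P05Rik window lay whole inside a peak of Ctrl replicate 2 alone, with 45 CG. The windows of Eps8l1 (Ctrl replicate 2) and Gm15564 (both Pi lists, at an rRNA repeat) were reached too. No intergenic peak reached any of the 1005 miRNA hairpins in the table, although 32 peaks were nearest to 9 Mir genes, at 1136 bp for the closest. Sequences of the peaks themselves were not analysed here.

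Intergenic peaks were a small share of every list. THOC5 OE had 66 of 4618 peaks (1.43%, 95% exact binomial interval 1.11 to 1.81%) in replicate 1 and 67 of 4240 (1.58%, 1.23 to 2.00%) in replicate 2. GFP OE had 43 of 3711 (1.16%, 0.840 to 1.56%) and 41 of 2572 (1.59%, 1.15 to 2.16%). The share was 43 of 2666 (1.61%, 1.17 to 2.17%) and 65 of 3793 (1.71%, 1.33 to 2.18%) in Pi. In Ctrl it was 16 of 2603 (0.615%, 0.352 to 0.996%) and 42 of 4795 (0.876%, 0.632 to 1.18%). The intervals cover counting error only. Both Ctrl lists were below all 6 lists from osteogenic medium, both Pi lists lay above the other 6, and the THOC5 OE lists lay within the range of the GFP OE lists.

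**Figure D1:**
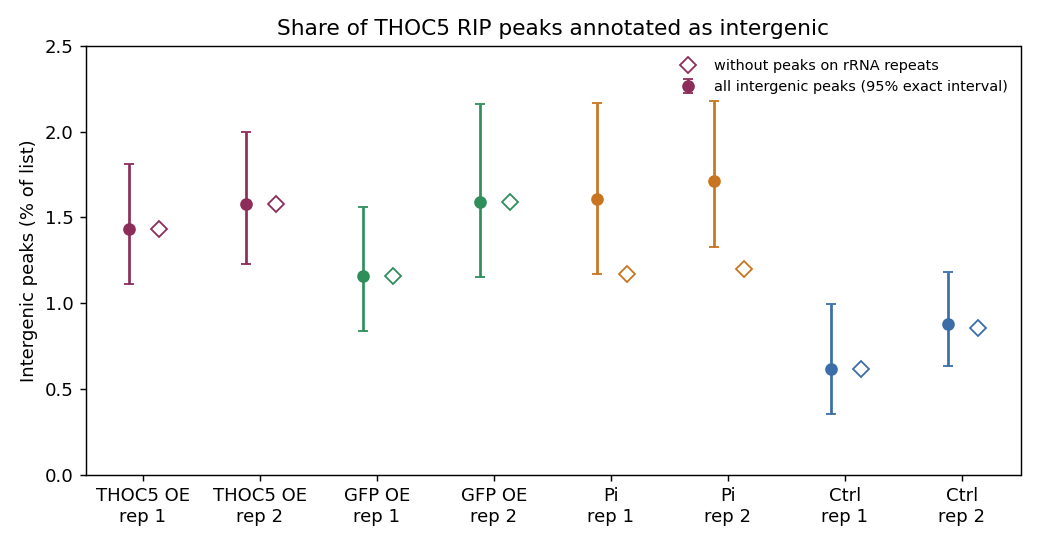
Intergenic peaks as a percentage of all peaks of each of the 8 lists, with 95% exact binomial intervals (filled circles), and the same share without peaks on rRNA repeats (open diamonds). The Ctrl lists, at 0.615% and 0.876%, lie below the other 6, and the diamonds of the Pi lists, at 1.17% and 1.2%, lie below their circles.

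Conditions held 87.0% of the variance in this share between lists (exact permutation test over all pairings of the 8 lists, p = 0.0476, adjusted p = 0.0952 over 4 such tests), which misses the threshold of 0.05. In Pi the share averaged 1.66 ± 0.0707%, against 0.746 ± 0.185% in Ctrl (SD, n = 2 each), a difference of 0.918 percentage points with all 4 pairs of lists in that direction. Its two-sided exact permutation p of 0.333 is the smallest that 2 lists against 2 can give. GFP OE averaged 1.38 ± 0.304% and Pi 1.66 ± 0.0707% (SD, n = 2 each), a difference of -0.287 points (exact permutation p = 0.333). THOC5 OE averaged 1.5 ± 0.106% and GFP OE 1.38 ± 0.304% (SD, n = 2 each), and this difference of 0.128 points (exact permutation p = 1.00) was smaller than the spread between the GFP OE lists. For the 113 peaks outside every RefSeq gene, conditions held 91.5% of the variance (exact permutation p = 0.00952, the smallest possible, adjusted p = 0.0127). Such peaks made up 0.368% and 0.495% of the THOC5 OE lists, 0.350% and 0.311% of GFP OE, 0.563% and 0.685% of Pi and 0.115% and 0.209% of Ctrl. With rRNA repeats left out, the Pi shares were 0.227% and 0.292%, below all 4 lists of overexpressing cells, and those of the other lists were as above. Conditions then held 83.5% of the variance (exact permutation p = 0.00952, 8 lists, adjusted p = 0.0127), and Pi was the highest condition only with its rRNA peaks.

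Intergenic peaks on rRNA repeats came almost all from the Pi lists. There were 33 of them: 0 in both THOC5 OE lists, 0 in both GFP OE lists, 12 and 20 in the Pi lists and 0 and 1 in the Ctrl lists. These 33 were most of the 46 peaks on rRNA repeats in all classes of all lists. Those 46 were 17 and 28 in the Pi lists, 0 and 1 in the Ctrl lists and 0 in every THOC5 OE and GFP OE list. The concentration in Pi was thus not particular to intergenic peaks. Of the 33, 31 were annotated as the large subunit rRNA (LSU-rRNA), 1 as the small subunit rRNA and 1 as 5S. Without them the shares were 1.43% and 1.58% in THOC5 OE, 1.16% and 1.59% in the GFP OE lists, 1.17% and 1.2% in Pi, and 0.615% and 0.855% in Ctrl. The difference of Pi minus Ctrl was then 0.448 points, in 4 of 4 pairs, and that of GFP OE minus Pi turned to 0.194 points. Conditions held 83.4% of the variance without them (exact permutation p = 0.0857, adjusted p = 0.114, 8 lists). The libraries had been depleted of rRNA before preparation, per the labels' protocols, and how well each depletion worked was not tested.

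The rRNA peaks formed 22 sites, where a site is a run of overlapping peaks from any list. Both Pi lists held 12 of them, Pi replicate 2 alone 8, Pi replicate 1 alone 1 and Ctrl replicate 2 alone 1. The site near Myom2 (chr8:15519681-15520234) stood at the 86.4th percentile of score in Pi replicate 1 and the 98.2nd in replicate 2, and that near Pex2 (chr3:5860384-5860979) at the 83.0th and 98.3rd. Here and below a percentile is the rank of a peak's score within its own list, and a high one is a strong peak. Sites near Myl12b, Mir6356, Apbb1ip, Plekha1, Hic2 and Kpna1 were also in both Pi lists and no other. At the last of these the Pi replicate 1 peak was annotated to an LTR element and the replicate 2 peak to LSU-rRNA. Over the 12 sites the percentile ran between 0.375 and 86.4 in Pi replicate 1 (median 27.6) and between 47.9 and 98.3 in Pi replicate 2 (median 73.8), and was higher in replicate 2 at 12 of 12. The strongest intergenic peak of Pi replicate 2 was an LSU-rRNA peak near Axin2 (chr11:109011629-109012068, rank 21). It was absent from Pi replicate 1. Of the 22 sites, 16 lay in no RefSeq gene and 5 in long noncoding RNA genes. Whether reads at these sites also match other rRNA copies was not tested.

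Beyond rRNA, 208 of the 383 peaks (54.3%) had no repeat or CpG island in the annotation, and 49 (12.8%) lay on a CpG island, a stretch rich in CG that often marks a promoter. LTR elements carried 33 peaks (13 of the ERVL-MaLR family and 13 of ERVK), LINE elements 24 (all L1), SINE elements 14 and satellites 7. A further 15 lay on other repeats, 6 of them on the unclassified mouse repeat MurSatRep1. In THOC5 OE replicates 1 and 2, LINE elements carried 6 and 6 peaks and LTR elements 7 and 6. GFP OE had 3 and 2 LINE peaks and 6 and 3 LTR peaks. Pi had 2 and 4 LINE and 2 and 2 LTR peaks, and Ctrl 0 and 1 LINE and 2 and 5 LTR peaks.

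**Figure D2:**
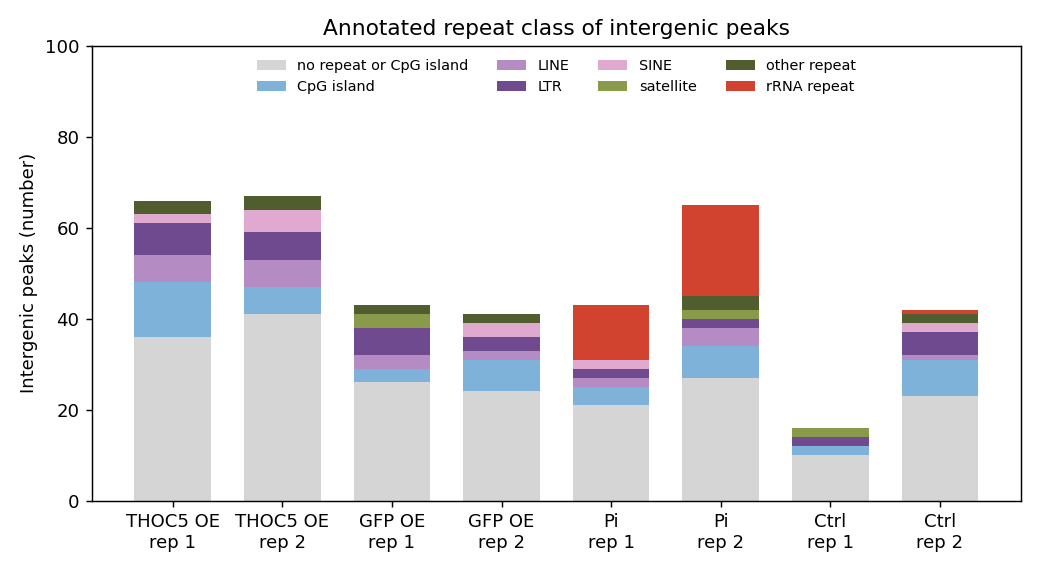
Number of intergenic peaks in each list, stacked by the repeat class of the deposited annotation. Red rRNA segments stand on the Pi bars (12 and 20 peaks) and on Ctrl replicate 2 (1 peak), and peaks with no repeat or CpG island (grey) are the tallest segment of every bar.

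Repeats were more frequent among intergenic than among intronic peaks of the same list. In THOC5 OE 27.3% and 29.9% of intergenic peaks lay on a repeat, against 12.7% and 14.5% of intronic peaks. In GFP OE these shares were 32.6% and 24.4%, against 11.9% and 16.1%. The Pi lists had 41.9% and 47.7%, against 16.7% and 13.6%, and the Ctrl lists 25% and 26.2%, against 13.2% and 11.1%. The difference averaged 18.1 ± 8.26 percentage points (SD, n = 8 lists) and was positive in 8 of 8 lists (two-sided exact sign-flip permutation test, p = 0.00781, the smallest possible, adjusted p = 0.0156 over 4 such tests). Without rRNA repeats it was 12.3 ± 5.21 points, also in 8 of 8 lists (exact permutation, adjusted p = 0.0156). Among peaks at or above the median score of their list it was 17.3 points and missed the threshold (exact permutation, n = 8 lists, adjusted p = 0.0781).

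CpG islands were also more frequent in intergenic than in intronic peaks, by 7.32 ± 4.12 points (SD, n = 8 lists, 8 of 8 positive, exact sign-flip permutation p = 0.00781, adjusted p = 0.0156). This comparison was added after the sites had been seen. In THOC5 OE they lay under 18.2% and 8.96% of intergenic peaks, against 7.39% and 6.44% of intronic peaks. The GFP OE lists had 6.98% (3 peaks) and 17.1%, against 4.57% and 7.33%. Pi had 9.30% and 10.8%, against 4.89% and 4.57%. In Ctrl they lay under 12.5% and 19%, against 3.87% and 5.22%. Of the 49 peaks on CpG islands, 44 had their centre inside a protein-coding RefSeq gene.

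Peaks on rRNA repeats are left out of the distances that follow, which leaves 350. Their median distance to the nearest transcription start site (TSS) in the deposited annotation was 21370 bp, with quartiles of 11542 and 47038 bp. Within 10 kb of a TSS lay 71 peaks (20.3%), and over 100 kb away 47 (13.4%). Upstream of the nearest start lay 254 peaks (72.6%) and downstream 96. A peak inside an annotated gene is not labelled intergenic, so downstream places count only past the gene's end. The label thus favours upstream peaks, and the upstream share was not tested. The closest was a peak 1041 bp from the TSS of Myom1, a sarcomere protein, in GFP OE replicate 1 (chr17:71018306-71018726). The farthest lay 1042497 bp from the TSS of Socs6, a suppressor of cytokine signalling, in THOC5 OE replicate 2, and with rRNA repeats counted the farthest was 1472511 bp from Gm20268 in Pi replicate 2.

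**Figure D3:**
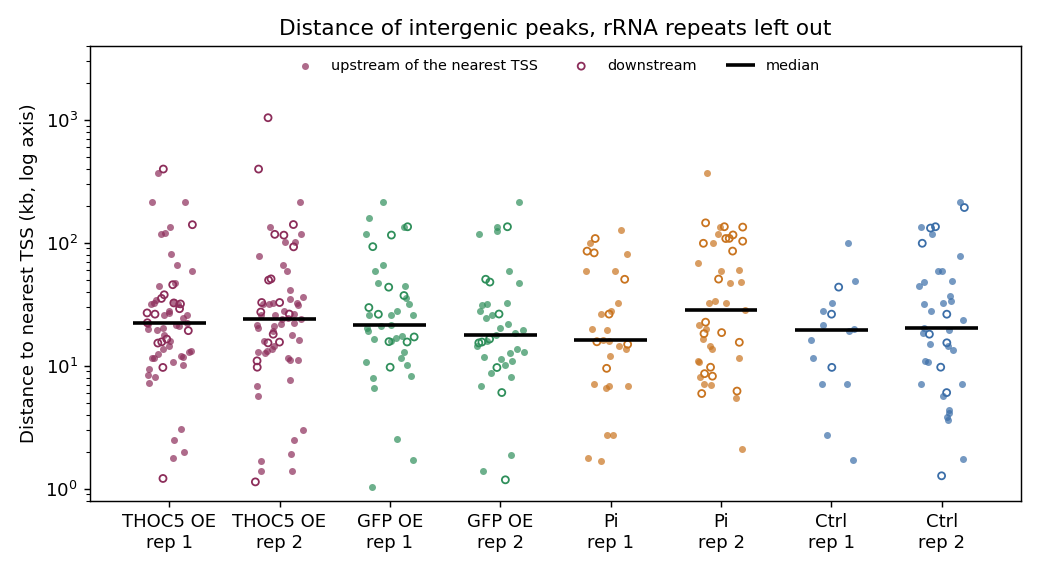
Distance of each intergenic peak to the nearest TSS in kb on a log axis, by list, without rRNA repeats. Filled points lie upstream and open points downstream, and bars mark the list medians, which all lie between 16264 and 28321 bp.

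The median distances were 22210 and 23945 bp in THOC5 OE, 21303 and 17779 bp in the GFP OE lists, 16264 and 28321 bp in Pi and 19651 and 20173 bp in Ctrl. The highest and the lowest medians were both in Pi, and conditions held 17.1% of the variance (exact permutation p = 0.848, 8 lists, adjusted p = 0.848). This value rested on the Pi lists: it was 85.7% without Pi replicate 1 (adjusted p = 0.0952, exact permutation) and 81.3% without Pi replicate 2 (adjusted p = 0.143). Measured as the share of peaks within 10 kb of a TSS, conditions held 85.8% of the variance (exact permutation p = 0.0476, 8 lists, adjusted p = 0.0635), which misses the threshold. That share was 15.2% and 16.4% for THOC5 OE, 16.3% and 19.5% for GFP OE, 29.0% and 22.2% for Pi and 31.2% and 26.8% for Ctrl, so all 4 lists of overexpressing cells were below the other 4. The share upstream was 57.8% in Pi replicate 2 and between 73.1% and 81.2% in the other 7 lists.

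Intergenic peaks had lower scores than the other peaks of their list. Their median percentile was 19.3 and 16.4 in THOC5 OE, 23.7 and 24.1 in the GFP OE lists, 28.8 and 38.6 in Pi and 51.2 and 22.2 in Ctrl. Other peaks had medians between 49.7 and 50.6. The difference averaged -22.2 ± 11.8 percentile points (SD, n = 8 lists) and was negative in every list but Ctrl replicate 1 (two-sided exact sign-flip permutation p = 0.0156, adjusted p = 0.0208). Against intronic peaks of the same list it was -16.6 points (exact permutation, 8 lists, adjusted p = 0.0312). Among peaks inside a protein-coding RefSeq gene alone it was -14.3 ± 11.0 points against all other peaks (exact permutation, n = 8, adjusted p = 0.0312). In lists shortened to their 2572 strongest peaks it was -5.19 points (exact permutation, n = 8, adjusted p = 0.469), and among peaks at or above the list median it was -0.969 points (exact permutation, n = 8, adjusted p = 0.781). Both cuts remove peaks by the same score that is compared, so a smaller difference is built in. These values cannot tell whether the difference over whole lists holds.

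**Figure D4:**
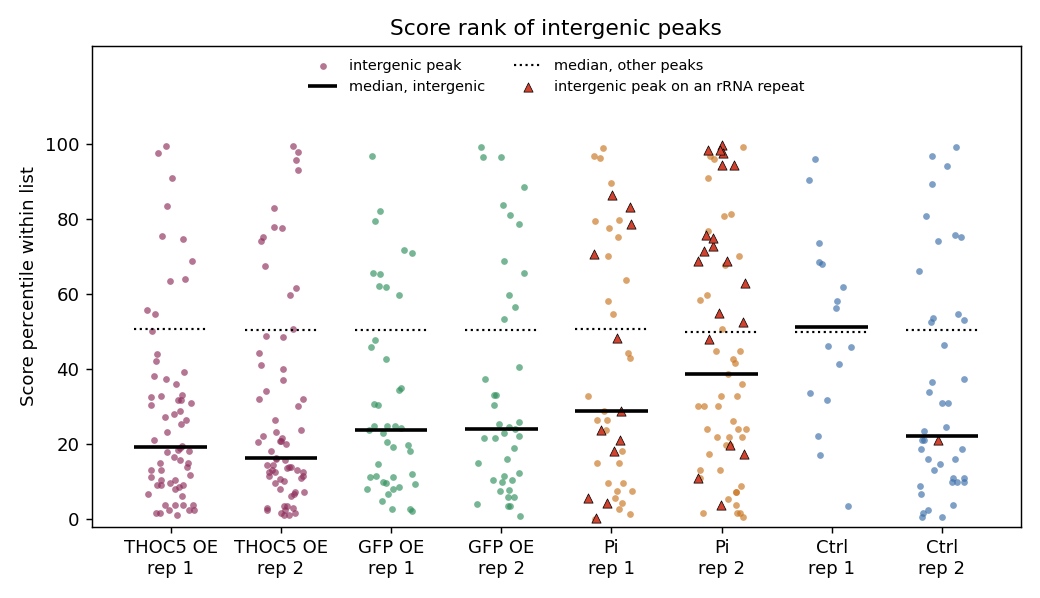
Percentile of score within its own list for every intergenic peak, with the median of intergenic peaks (solid bar) and of other peaks (dotted bar), and rRNA repeats as red triangles. The solid bars lie between 16.4 and 38.6 except in Ctrl replicate 1 (51.2), and the dotted bars lie near 50.

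The lowest 10% of a list's scores held 87 of the 383 intergenic peaks (22.7%), against 9.95% of other peaks. At the other end, the 100 strongest peaks of each list, 800 in all, held 14 intergenic peaks (1.75%, where intergenic peaks are 1.32% of all peaks): 1 and 2 in THOC5 OE, 0 and 3 in the GFP OE lists, 2 and 5 in Pi and 0 and 1 in Ctrl. Of these 14, 10 lay inside a protein-coding RefSeq gene and 4 on rRNA repeats. The score is the value that the authors' caller gave, on a scale not given in the sources used here, so only ranks within a list were read from it.

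The 383 peaks formed 187 sites, of 12362 sites formed by all peaks. Of the 187, 97 (51.9%) were in 1 list, against 49.1% of all sites. In at least 6 lists were 12 (6.42%), against 9.05% of all sites, and in all 8 lists 3 (1.60%), against 2.62%. A peak of another class joined 1 of the 187 sites: at Rbm15, whose product belongs to the RNA methylation machinery, the peak of THOC5 OE replicate 2 was not intergenic while that of Pi replicate 2 was. Of the 12 sites in at least 6 lists, 10 lay in protein-coding RefSeq genes, 2 carried a repeat and 1 lay in no RefSeq gene. Of the 97 sites in 1 list, 37 lay in protein-coding genes, 47 in no gene, and 46 carried a repeat. By place, 25 of 72 sites outside RefSeq genes (34.7%), 42 of 79 in protein-coding genes (53.2%) and 18 of 22 in pseudogenes (81.8%) were in at least 2 lists. Repeats lay under 45 of the 72 sites outside genes (62.5%), 29 of 56 once rRNA sites are set aside, and under 25 of the 79 in protein-coding genes (31.6%).

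The strongest intergenic site shared by all lists had Gm4793 as its nearest gene and lay inside Nav1, which codes for a neuron navigator protein that binds microtubule ends (chr1:135607031-135607779). Its percentile was 97.5 and 97.8 in THOC5 OE, 96.7 and 96.3 in the GFP OE lists, 96.2 and 96.7 in Pi and 95.9 and 96.6 in Ctrl. All 8 values lay within 2 points of each other. Both other sites in all 8 lists lay in 2900026A02Rik, a protein-coding gene in the RefSeq table. The first (chr5:113182943-113183795) had percentiles of 83.3 and 82.9 in THOC5 OE, 79.3 and 83.6 in the GFP OE lists, 77.6 and 80.7 in Pi and 73.6 and 80.8 in Ctrl. The second (chr5:113190779-113191854) had 74.6 and 77.7 in THOC5 OE, 71.7 and 78.5 in the GFP OE lists, 75.2 and 76.7 in Pi and 67.8 and 75.2 in Ctrl.

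A site in Fat1, a giant cadherin of cell junctions, was in 6 lists and had the best rank of all intergenic peaks in 5 of them (chr8:44935369-44935997). It stood at the 99.4th percentile in both THOC5 OE lists, the 99.0th in GFP OE replicate 2, the 98.8th and 99.0th in Pi and the 99.2nd in Ctrl replicate 2. There was no peak in GFP OE replicate 1 or Ctrl replicate 1, and a missing peak is no evidence that THOC5 was not bound. In Utrn, which codes for utrophin, a link between the actin skeleton and the membrane, a site at chr10:12868342-12869207 was in every list but GFP OE replicate 1. Its percentile was 90.9 and 93.0 in THOC5 OE, 88.5 in GFP OE replicate 2, 89.4 and 90.9 in Pi and 90.3 and 94.0 in Ctrl. The Maml2 site shown above stood at 95.5 in THOC5 OE replicate 2, 96.3 in GFP OE replicate 2, 96.8 and 96.0 in Pi, with no peak in Ctrl, THOC5 OE replicate 1 or GFP OE replicate 1.

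Other sites in at least 6 lists ranked lower or varied more. The Csrp1 site in Nav1 that reaches the Gm32835 window (chr1:135687432-135688051) was in every list but GFP OE replicate 1, at percentiles between 23.7 and 67.5. A site on an LTR element nearest to Mir692-2 (chr13:74433108-74433701) was in every list but Pi replicate 2, between 46.2 and 82.0. On CpG islands lay a site in Kalrn, which codes for a guanine nucleotide exchange factor (chr16:34572643-34573269, 1.28 to 39.1), absent from Ctrl replicate 1, and a site in Gse1 (chr8:120229631-120230535, 56.2 to 70.0), absent from THOC5 OE replicate 1. The site nearest to Clca3a1 (chr3:144780041-144780737, 7.85 to 52.5) lay in the pseudogene Gm17743 and was absent from Pi replicate 2. In Cdk12, which codes for a kinase of the RNA polymerase II tail, a site with Mir5119 as its nearest gene (chr11:98277281-98278349, 18.2 to 59.8) was in 6 lists.

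**Figure D5:**
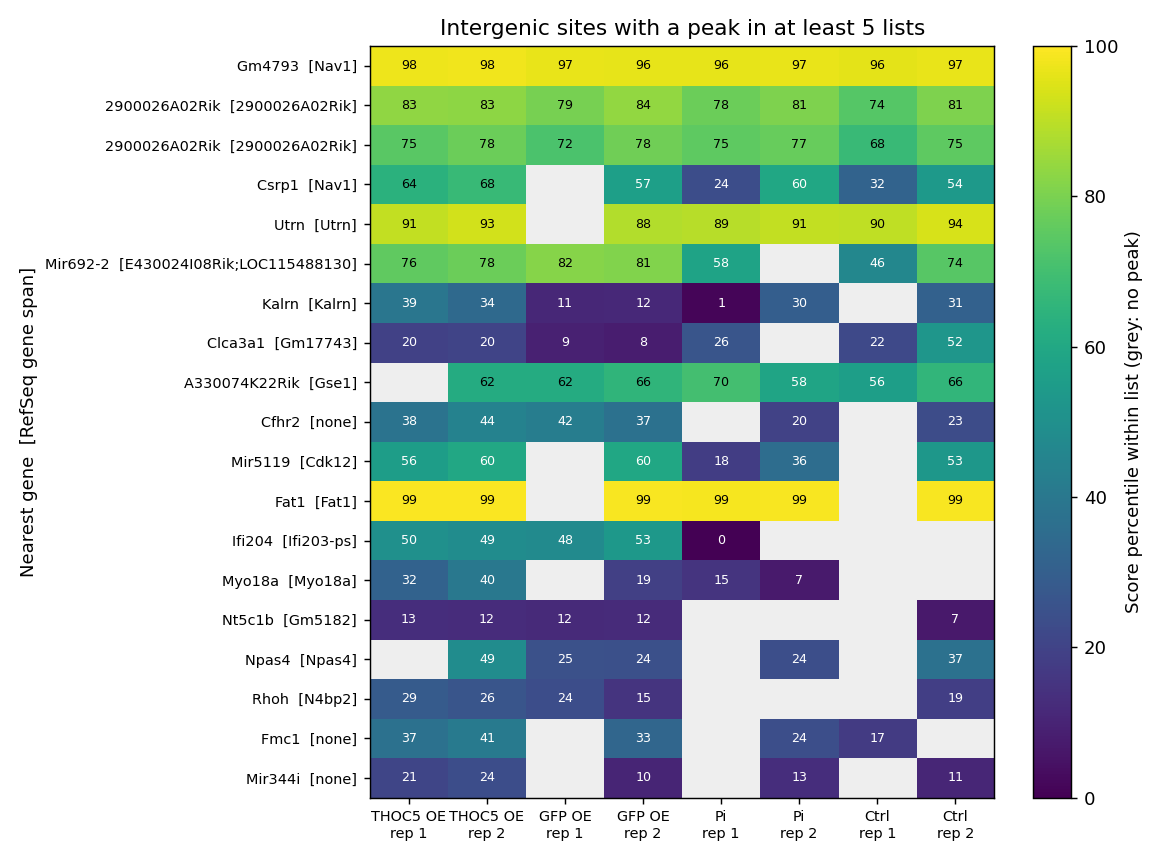
Score percentile within each list at the intergenic sites with a peak in at least 5 lists, named by the nearest gene with the RefSeq gene around the site in brackets, and grey where a list had no peak. The Gm4793 row in Nav1 and the Fat1 row hold the highest values, 95.9 to 97.8 and 98.8 to 99.4, and the Ctrl replicate 1 column holds the most grey cells.

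Intergenic peaks and other peaks were shared between lists at rates whose difference did not pass the test. Of intergenic peaks, 72.7% and 70.1% in THOC5 OE, 74.4% and 90.2% in the GFP OE lists, 86.0% and 66.2% in Pi and 87.5% and 66.7% in Ctrl overlapped a peak of another list by at least 1 base. For other peaks these shares were 81.8% and 82.4%, 81.7% and 90.6%, 75.9% and 73.0%, and 80.8% and 71.3% in the same lists. The difference averaged -2.94 ± 7.84 points (SD, n = 8 lists, 2 of 8 positive, exact sign-flip permutation p = 0.305, adjusted p = 0.305). The lists overlap each other, so the 8 differences are not fully independent.

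In the main test, replicates of a condition shared more intergenic sites than lists of different conditions, a call that depended on the settings. The Jaccard index, the sites in both lists over the sites in either, averaged 0.289 within conditions and 0.190 between them, a difference of 0.0988 (exact permutation, with every way of pairing the 8 lists, p = 0.00952, the smallest possible, adjusted p = 0.0381). It was 0.340 between the THOC5 OE lists, 0.273 between the GFP OE lists, 0.333 between the Pi lists and 0.208 between the Ctrl lists. Between conditions it was 0.286 for THOC5 OE with GFP OE and 0.153 to 0.200 for the other 5 pairs. Over all sites the difference was 0.0479 (exact permutation p = 0.0667). The difference stayed positive under every alternative tried, but the call held under few of them. It was lost without rRNA repeats (0.0580, exact permutation, adjusted p = 0.114), where the Pi lists had 0.246, and with a replicate block (0.0988, exact permutation p = 0.0417, adjusted p = 0.167). It was also lost with both stricter overlaps, with shortened lists, among peaks at or above the median score (0.0914, exact permutation, adjusted p = 0.229) and without any 1 of 5 lists: THOC5 OE replicate 1 (0.0834) or 2 (0.0873), GFP OE replicate 1 (0.0987), Pi replicate 2 (0.0717) or Ctrl replicate 1 (0.111). When pairings were kept within the 4 lists of overexpressing cells and within the other 4, an alternative added after the data had been seen, the exact permutation p was 0.111 and the adjusted p 0.148.

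Between Pi and Ctrl, 17 of 107 intergenic sites in either condition (15.9%) had a peak in both Pi lists but in no Ctrl list, where 2.59% of all sites have this pattern. Of the 17, 12 were the rRNA sites above, and without rRNA sites the share was 5.88% (5 sites). These 5 were the Maml2 site and sites near Fbln5, Gm10556, Smad6 and Myo18a. The site near Fbln5, an elastic fibre gene, lay in Trip11, which codes for a Golgi protein (chr12:101835107-101835717), and stood at the 63.7th and 67.6th percentiles in Pi, with a further peak at the 62.2nd in GFP OE replicate 1. The Smad6 site (chr9:63936121-63936719), nearest to an inhibitor of BMP signalling that lies over 85 kb away, stood at 32.7 and 26.1 in Pi and had no peak elsewhere. The Gm10556 site lay in Svil, which codes for the actin-binding protein supervillin, at 42.8 and 44.8 in Pi alone. The opposite pattern, both Ctrl lists but no Pi list, was met by 1 site of 107 (0.935%), against 4.67% of all sites. It was nearest to Gm10416, on an LTR element (chr5:109883186-109883709), at 33.5 and 54.7 in Ctrl.

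Between GFP OE and Pi, 6 of 121 sites (4.96%) had a peak in both GFP OE lists but in no Pi list, against 5.13% of all sites. The strongest, nearest to F830016B08Rik on an ERVK element, stood at 68.6 and 75.1 in the THOC5 OE lists and 65.6 and 68.6 in the GFP OE lists. It and the Psd3 site (chr8:68000299-68000851), in a gene for an exchange factor of ARF GTPases, were in all 4 lists of overexpressing cells and no other, as were 1.07% of intergenic and 0.874% of all sites. The remaining 4 were nearest to Gm7361, Rhoh, Nlrc5 and Nt5c1b. The reverse pattern, both Pi lists but no GFP OE list, was met by 15 sites (12.4%), against 3.93% of all sites, of which 12 were rRNA sites. The other 3 (3.0% of sites without rRNA) were the Gm10556 and Smad6 sites and one nearest to Obox2 in a pseudogene (chr7:15288712-15289286), at 79.7 and 81.3 in Pi and 61.9 in Ctrl replicate 1.

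Between THOC5 OE and GFP OE, 9 of 123 sites (7.32%) had a peak in both THOC5 OE lists but in no GFP OE list, against 8.21% of all sites. All 9 ranked low, at percentiles between 1.08 and 22.2. They included an L1 element near Zfp433 (chr10:81737044-81737811, 17.8 and 22.2), a site in Pms2, a mismatch repair gene (chr5:143936686-143937648, 14.9 and 20.8), a site in Tln2, which codes for the adhesion protein talin-2 (chr9:67572711-67573249, 16.5 and 10.6), and a site in Ncoa6, a nuclear receptor coactivator gene (chr2:155473140-155473746, 8.98 and 6.70). Of the 9, 8 were in no other list (4.28% of the 187 sites, against 2.70% of all sites), and the Tln2 site was also in Ctrl replicate 2. The reverse pattern, both GFP OE lists but no THOC5 OE list, was met by 2 sites (1.63%), against 1.39% of all sites. One lay in Nlrc5, a regulator of MHC class I genes (chr8:94459493-94460022, 14.6 and 25.8 in GFP OE).

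Sites in both lists of a condition and in no other list were 14 in Pi (7.49% of the 187, against 0.768% of all sites), of which 12 were rRNA sites, leaving 2 (1.21% of sites without rRNA). GFP OE had 1 (0.535%, against 0.388%) and Ctrl 1 (0.535%, against 1.33%). These counts rest on both lists of a condition. Judged on the remaining list, sites in Pi and not Ctrl were 47 without Pi replicate 1 and 29 without Pi replicate 2, those in Pi and not GFP OE 44 and 26, and those in Ctrl and not Pi 22 without Ctrl replicate 1 and 5 without Ctrl replicate 2. Sites in GFP OE and not Pi were 20 without GFP OE replicate 1 and 26 without GFP OE replicate 2. Sites in THOC5 OE and not GFP OE were 34 without THOC5 OE replicate 1 and 32 without THOC5 OE replicate 2. Leaving out a list of the other condition also moved counts: sites in THOC5 OE and not GFP OE were 20 without GFP OE replicate 2, those in GFP OE and not Pi were 10 without Pi replicate 2, and those in Ctrl and not Pi were 4 without Pi replicate 1. Sites in GFP OE and not THOC5 OE were 4 when either THOC5 OE list was left out, 8 without GFP OE replicate 1 and 17 without GFP OE replicate 2.

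No member of the gene lists for contractile smooth muscle (10 genes), osteochondrogenic transition (12), phosphate and calcification (9), matrix (11), endothelial cells (4), fibroblasts (3), leukocytes (3), mRNA export (11) or named long noncoding RNAs (6) was the nearest gene of an intergenic peak or the RefSeq gene around one. These 69 genes were nearest to 0.629% of the other peaks, and 0 of 383 allows a share of up to 0.783% (3 counts of the total), so this 0 does not set intergenic peaks apart. The 383 peaks form 187 sites and are not independent, so the true limit is higher. The lists do not hold every gene of their kind. Fbln5, Phex and Thbs2, which are in none of them, were nearest genes. The Phex site (chrX:157016521-157017126) lay in a pseudogene. It had a peak in both THOC5 OE lists and no other, at percentiles of 1.53 and 13.0. Of the 153 nearest genes, 41 had Gm or Rik names, which mark predicted or unnamed genes, and these were nearest to 27.4% of the 383 peaks, against 6.26% of other peaks. Nearest genes of other peaks include the gene that holds the peak, and this difference was not tested.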

How the data were processed

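Peaks of THOC5 RIP-seq came from 8 samples. The submitters' processing notes name mm10, Bowtie2, FastQC, SAMtools and MACS2, with no role for any. HOMER's annotatePeaks.pl placed the peaks against mm10, per the file headers. The peak caller and its settings are not named there. The deposited score of each peak was used only as a rank within its list. Each list has 1 peak width, 415 to 553 bp, and no strand was used. Files were joined to samples by the condition abbreviation and number in their headers.

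Python 3.11.15, pandas 2.3.3, NumPy 2.4.6, SciPy 1.17.1 and matplotlib 3.10.9 were used. Sites merged peaks sharing at least 1 base. Shares without rRNA repeats leave such peaks of every class out of the list. Peak centres were placed in RefSeq genes (49997 in the table), and all 153 nearest genes matched it, 151 by symbol. Conditions were tested by exact permutation, with every way of pairing the 8 lists, list differences by exact sign flips, with Benjamini-Hochberg adjustment within each kind. The steps were tested on simulated data. Members, gene lists and tests were chosen with earlier results of these data known.

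Sites named were those in at least 6 lists, at most 6 per pattern, up to 8 rRNA sites, the best peak of each list and the nearest and farthest ones. Outside this rule, the windows reached and the Smad6, Gm10556, Myo18a, Rbm15, Phex and Thbs2 sites were chosen after their values were seen. A few sites under the rule are not reported here. The alternatives were a stricter score, shortened lists, other overlaps, no rRNA repeats, no unplaced scaffolds, RefSeq spans, each list left out and a replicate block.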

Additional observations from a re-analysis of the deposited data

How the results depend on the processing

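Of 202 alternative values, 149 kept direction and side of the threshold, 15 lost a call, 4 gained one, 28 counts moved by over 1.5 times and 6 values reversed. The causes were not tested, except that fewer peaks or lists entered shortened lists and left-out lists. Among peaks at or above the median score, the THOC5 OE minus GFP OE share was -0.168 points, the repeat difference 17.3, the percentile difference -0.969, the sharing difference 3.67 and the Jaccard difference 0.0914; sites in Pi not Ctrl were 6, Ctrl not Pi 0, GFP OE not Pi 1, Pi not GFP OE 5, THOC5 OE not GFP OE 0 and GFP OE not THOC5 OE 0. In lists shortened to 2572 peaks, these were -0.525 points for THOC5 OE minus GFP OE, -5.19 for percentiles, 0.989 for sharing and 0.177 for Jaccard (exact permutation, adjusted p = 0.0762), with 3 sites in GFP OE not Pi, 0 in THOC5 OE not GFP OE and 1 in GFP OE not THOC5 OE. Without rRNA repeats, GFP OE minus Pi was 0.194 points, Jaccard 0.0580, Pi not Ctrl 5 sites and Pi not GFP OE 3. The Jaccard difference missed the threshold at 50% overlap of both peaks (0.0911), for centres within 250 bp (0.0925) and for pairings within overexpressing and other lists (0.0988). Outside RefSeq genes, conditions held 91.5% of the variance in share, and 83.5% without rRNA repeats, both past the threshold.

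With each list left out, conditions held 79.5 to 95.3% of the variance in share (past the threshold at 95.1% without GFP OE replicate 2), 75 to 95% without rRNA repeats (93.6% without that list, past the threshold) and 9.41 to 85.7% in distance. The repeat difference was 15.8 to 19.5 points, CpG islands 6.39 to 8.02, percentile -25.6 to -20.5 and sharing -7.65 to -1.25. The Jaccard difference was 0.0717 to 0.131. THOC5 OE minus GFP OE was -0.0894 (without GFP OE replicate 1) to 0.346 points, GFP OE minus Pi -0.505 to -0.0692 and Pi minus Ctrl 0.787 to 1.05. Site counts were 11 to 34 for THOC5 OE not GFP OE, 4 to 17 for GFP OE not THOC5 OE, 9 to 26 for GFP OE not Pi, 16 to 44 for Pi not GFP OE, 18 to 47 for Pi not Ctrl and 1 to 22 for Ctrl not Pi, with a condition of 1 list judged on that list.

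No pairing of the samples by replicate number was seen: the correlations by replicate number over sites, a value for each pair of conditions, were -0.07 to 0.08. Such low values cannot show that same-numbered samples share nothing. With the replicate block the Jaccard difference was 0.0988 (exact permutation p = 0.0417, adjusted p = 0.167). GC content was not run, since no genome sequence was used here. Library depth is unknown, so a missing peak cannot be weighed by depth.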
